A study of Mus musculus and Homo sapiens with 4 samples.

Results

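The metallothionein genes form a compact cluster on human chromosome 16 and were examined in RNA-sequencing libraries labelled VCaP, the name of a line of prostate cancer cells, and VCaP ERα, described as that line overexpressing oestrogen receptor alpha (ERα). The 9 genes are MT2A, MT1A, MT1E, MT1F, MT1G, MT1H, MT1M, MT1X and MT3. Each was found by its symbol among the 25932 entries of the deposited expression values, and each of the 9 stood on 1 entry only. Each group held 1 library, made from total RNA of cells at passage 5 to 6 in serum-containing DMEM after removal of ribosomal RNA, with the strand kept. No difference therefore has a replicate check, no spread between samples exists and no P-value is given. Values are RPKM, that is reads divided by entry length and by the mapped reads of the library. The labels do not say whether the VCaP library carried an empty vector, or whether the ERα line was 1 clone. The series also holds 1 library each of wild-type and NEAT1 knockout (KO) mouse embryonic fibroblasts (MEFs) of strain C57BL/6, taken at embryonic day 13.5 and grown for 2 to 3 passages.

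Metallothioneins are very small, cysteine-rich proteins that bind zinc and copper and buffer the free concentration of these metals in the cell. Zinc activates the transcription factor MTF1, which binds metal response elements in their promoters and switches the genes on, and glucocorticoids and oxidants can also induce them. MT2A and the MT1 isoforms are made in many tissues, MT3 is best known from the brain and MT4 from stratified epithelia. Secretory cells of the normal prostate are known for storing unusually large amounts of zinc.

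The library labelled VCaP held little RNA of the markers of prostate cells. ESR1, which encodes ERα, had 15.7 RPKM in VCaP against 209 in VCaP ERα, in the direction of the labels. All 12 genes of a list of prostate luminal markers had a log2 ratio above 2 (VCaP ERα over VCaP, after 1 was added to each value), beside 2.27% of all entries. Their summed level was 20.3 RPKM in the library labelled VCaP, where no gene exceeded 8.18 RPKM. In VCaP ERα it was 2221 RPKM, and genes ranged between 3.16 and 694. KLK4 and FOLH1 were listed at 0 in the library labelled VCaP. Of 12 luminal breast markers 5 had a log2 ratio below -2 and 2 above 2, with sums of 4117 and 941 RPKM and SCGB2A2 at 0 in VCaP. Single genes made up much of these sums, KRT19 (1625) and TFF1 (1596) in VCaP and AGR2 (727) in VCaP ERα. Of 5 basal markers 3 lay below -2, beside 6.56% of all entries, with sums of 50.1 and 2.85 RPKM and KRT14 at 0 in VCaP. KRT17 alone had 38.9 of the 50.1 RPKM. The other 2 basal markers, KRT5 and KRT14, were higher in VCaP ERα, at 0.623 and 1.19 RPKM. Fibroblast markers did not exceed 1.18 RPKM and haematopoietic markers 0.769 RPKM in either library. The prostate markers were thus near 0 in the library labelled VCaP, and it is called VCaP here by its label only. The part of this difference in the metallothionein values was not tested. Bulk values also cannot tell fewer cells of a type from less RNA per cell.

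The make-up of the metallothionein transcripts differed between the libraries. In the library labelled VCaP most of the signal came from MT2A, the main isoform of most human cells. In VCaP ERα cells MT1E, a broadly expressed MT1 isoform that was listed at 0 in the other library, had the highest level, and MT1X was also higher. The summed level of the 9 genes was 53.2 RPKM in VCaP against 69.8 in VCaP ERα, a ratio of 1.31 and a log2 ratio of 0.39, which was 0.98 after centring on the median of expressed entries and 1.08 after quantile normalization. Without MT2A, the remaining genes summed to 10.1 RPKM in VCaP against 47.3 in VCaP ERα, a ratio of 4.67, and MT1E alone supplied 25.9 of the 47.3 RPKM. Without MT2A and MT1E the sums were 10.1 and 21.4 RPKM.

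MT2A (chromosome 16, 55200012 to 55200894 in the hg18 coordinates of the files) had 43.0 RPKM in VCaP against 22.5 in VCaP ERα, so its level in VCaP was 1.91 times that in VCaP ERα. Its log2 ratio was -0.90. Most well-expressed entries were lower in the same direction, with a median log2 ratio of -0.59 among the 9754 entries that reached 1 RPKM in each library. Relative to that median MT2A stood at -0.31. In VCaP it held 81.0% of the summed metallothionein level, and in VCaP ERα 32.3%.

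MT1E (55217086 to 55218525) was listed at 0 in VCaP and had 25.9 RPKM in VCaP ERα, with a log2 ratio of 4.75. It ranked 50 of all entries by log2 ratio and made up 37.1% of the summed level in VCaP ERα. A listed 0 was common in the VCaP library, where 8757 entries (33.8%) had it, against 3607 (13.9%) in VCaP ERα. Of those 8757 entries, 938 (10.7%) reached 1 RPKM in VCaP ERα, and MT1E was the entry ranked 14 among them by its level there. No fold is given against a listed 0, and the number of reads that a 0 allows is unknown. The log2 ratio of MT1E and its rank therefore depend on the value added before the ratio. With 0.1 in place of 1 the log2 ratio was 8.02.

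MT1X (55273896 to 55275609), a further MT1 isoform, had 1.42 RPKM in VCaP against 8.62 in VCaP ERα, a ratio of 6.06. Its log2 ratio of 1.99 lay just under 2, the threshold that the study applied to call a gene upregulated. MT1F (55249356 to 55250713) had 7.39 RPKM in VCaP against 10.5 in VCaP ERα, a ratio of 1.42 and a log2 ratio of 0.45. MT1F thus held much the same part of the summed level in both libraries, 13.9% and 15.0%, whereas the part of MT1X was 2.67% in VCaP and 12.3% in VCaP ERα.

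**Figure D1:**
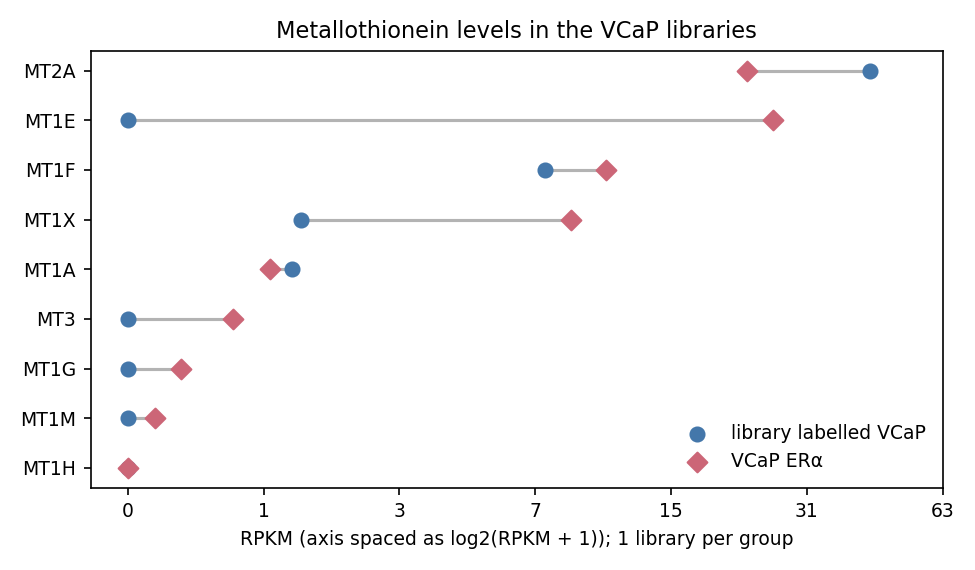
RPKM of each metallothionein gene (rows) in the library labelled VCaP (blue circles) and in VCaP ERα (red diamonds), on an axis spaced as log2(RPKM + 1), with 1 library per group and no error bars. MT2A is higher in VCaP (43.0 against 22.5 RPKM), MT1E goes from a listed 0 to 25.9 RPKM, and the MT1H circle at 0 lies under its diamond at 0.00221 RPKM.

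MT1A, another MT1 isoform, needs separate mention because its entry, which carries the symbols MTC and MT1A, runs from 55200012 to 55231500. It begins at the same base as MT2A, and 5 other entries of the cluster lie within it, among them MT2A, MT1E and MT1M. Its levels of 1.31 RPKM in VCaP against 1.06 in VCaP ERα can therefore include reads of those genes. The log2 ratio was -0.16, but it turned to 0.43 after centring on the median of expressed entries and to 0.080 after scaling to equal RPKM sums, so no direction is given for MT1A.

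The other 4 genes were listed at 0 in VCaP and stayed under 1 RPKM in VCaP ERα. MT3 (55180768 to 55182501), the isoform first described as a growth inhibitory factor of brain, had 0.710 RPKM there. MT1G (55258154 to 55259478) had 0.315 RPKM and MT1M (55224035 to 55225399) had 0.149 RPKM, both of them MT1 isoforms. Such low values were usual, since 53.2% of the entries listed at 0 in VCaP lay above 0 and below 1 RPKM in VCaP ERα. MT1H (55261227 to 55262542), also an MT1 isoform, had 0.00221 RPKM, and 0.125% of the entries above 0 in VCaP ERα were lower. A single read over its span of 1315 bp would give so low a value only in a library of 344 × 1000000 mapped reads or more. MT1H is treated here as not detected in either library.

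Ordered by level, VCaP gave MT2A, MT1F, MT1X and MT1A, with the other 5 genes listed at 0. VCaP ERα gave MT1E, MT2A, MT1F, MT1X, MT1A, MT3, MT1G, MT1M and MT1H. MT1E and MT2A lay close together in that order (25.9 and 22.5 RPKM), as did MT1F and MT1X (10.5 and 8.62 RPKM), and with 1 library no spread shows whether these neighbours differ. Ratios between genes of 1 library do not change when a library is multiplied by a constant. The level of MT2A was 30.3 times that of MT1X in VCaP and 2.62 times in VCaP ERα. It was 5.82 times that of MT1F in VCaP and 2.15 times in VCaP ERα, and MT1F in turn was 5.20 times MT1X in VCaP and 1.22 times in VCaP ERα. The isoforms are close paralogs, so reads can be shared between them, and how the authors placed reads that match several genes is not given in the sources used here.

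**Figure D2:**
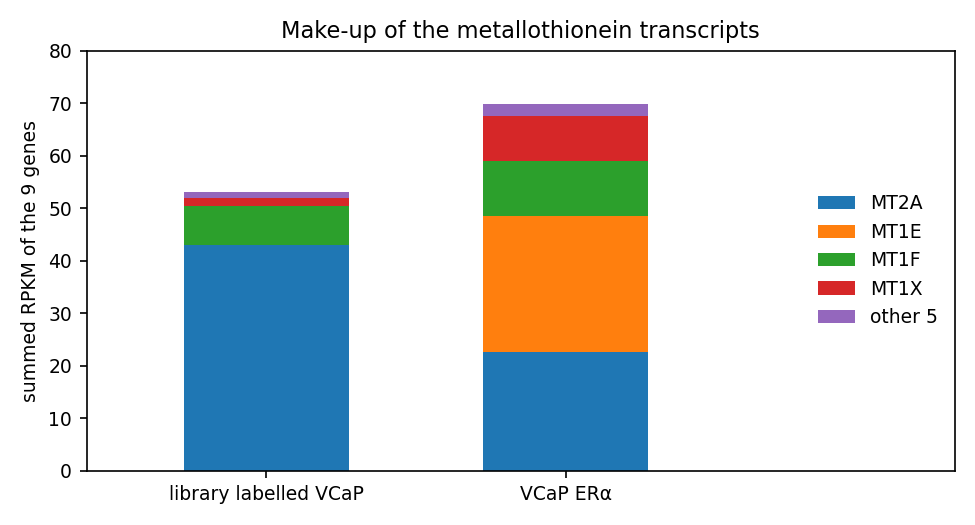
Summed RPKM of the 9 metallothionein genes in each library (bars from 0, 1 library per group), divided by gene. MT2A fills 81.0% of the VCaP bar, while MT1E (37.1%) and MT2A (32.3%) fill most of the VCaP ERα bar.

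Counted over the family, 7 of the 9 genes were higher in VCaP ERα by any amount, beside 46.6% of all entries, and 6 of the 7 MT1 genes were among them. Without MT1H, treated as not detected, the counts were 6 and 5. Of the 7 higher genes 5, MT1H among them, were listed at 0 in VCaP, where no lower value was possible. Among all entries listed at 0 there, 53.2% lay above 0 and below 1 RPKM in VCaP ERα and 10.7% reached 1 RPKM. After centring on the expressed entries 8 of the 9 were higher, and after quantile normalization 6, with MT1H then at -0.056. Of the 4 genes that reached 1 RPKM in both libraries MT1F and MT1X were higher, beside 29.1% higher among all such entries. MT2A was lower, and the ratio of MT1A turned with the scaling. A log2 ratio above 2 was found for 1 gene, MT1E, beside 2.27% of all entries, and one below -2 for 0 genes, beside 6.56%. The balance of these backgrounds depended on the scaling: after centring on the expressed entries, 4.77% of entries lay above 2 and 3.35% below -2. With that centring MT1X passed the threshold too, at 2.58, as it did after quantile normalization at 2.49. The median log2 ratio of the 9 genes was 0.39, beside 0 for all entries and -0.59 for expressed entries. That median is the value of MT1G, listed at 0 in VCaP with 0.315 RPKM in VCaP ERα. It was 1.32 with a pseudocount of 0.1 and 0.15 after quantile normalization. The counts and the median are over genes of 1 locus that were chosen together, and nothing particular to the family is read from them.

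The 9 genes span 94841 bp of chromosome 16 (55180768 to 55275609), which holds 14 entries in all. The 5 entries that are not among the 9 were each listed at 0 in VCaP. MT1B, an MT1 isoform, had 0.563 RPKM in VCaP ERα, and the pseudogene entry MT1IP was listed at 0 there too. The remaining 3 carry only the symbols MTF, MTB and MTM and were singled out here for their place inside the cluster. MTF, which is not the regulator MTF1, had 2.20 RPKM in VCaP ERα, MTB 0.355 RPKM and MTM 0.121 RPKM. MT4, on the side of MT3 and outside the span, was listed at 0 in both libraries. Together the 5 entries summed to 0 RPKM in VCaP against 3.24 in VCaP ERα, little beside the 69.8 RPKM of the 9 genes.

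None of the genes around the cluster had a ratio as high as MT1E or MT1X. The 10 nearest entries on each side reached 816 kb before and 561 kb after it. Of these 20 entries, 12 were higher in VCaP ERα, beside 46.6% of all entries, 7 were lower and 1 was listed at 0 in both. Of the 12 higher entries 7 were listed at 0 in VCaP with at most 0.350 RPKM in VCaP ERα. The median log2 ratio of the 20 was 0.15. Of the 20, 0 lay above 2 or below -2, beside 2.27% and 6.56% of all entries. With shares so small, a count of 0 among 20 entries tells little about the surroundings of the cluster. On the MT3 side the nearest was BBS2, a gene of ciliary transport 69.1 kb away, with 3.52 RPKM in VCaP against 4.23 in VCaP ERα. OGFOD1, a hydroxylase of a ribosomal protein, followed with 7.47 and 3.60 RPKM. On the MT1X side NUP93, a nuclear pore protein 46.0 kb away, had 6.39 and 4.84 RPKM, and the short entry CS266601 was listed at 0 in both. HERPUD1, a component of protein degradation at the endoplasmic reticulum, was chosen after its values were seen as the neighbour that differed most. It had 10.9 RPKM in VCaP against 36.8 in VCaP ERα, a log2 ratio of 1.66, which passed 2 after centring, at 2.25.

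**Figure D3:**
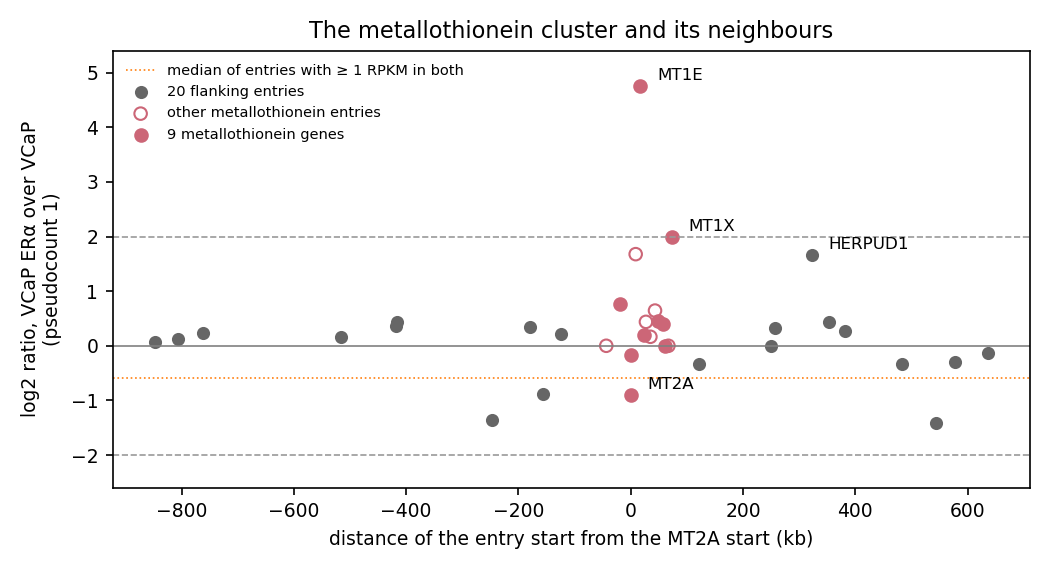
Log2 ratio of VCaP ERα over VCaP (pseudocount 1) against the distance of each entry's start from the MT2A start in kb, for the 9 metallothionein genes (filled red), other metallothionein entries (open red) and the 20 flanking entries (grey), with dashed lines at 2 and -2 and a dotted line at the median of entries expressed in both libraries (log2 ratio -0.59). MT1E stands at 4.75 and MT1X at 1.99, while the flanking entries lie between -1.41 for NIP30 and 1.66 for HERPUD1.

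All 8 genes of a list of regulators of metallothionein transcription had a negative log2 ratio, with a median of -1.79. Lower values were common, at 41.2% of all entries, and expressed entries had a median of -0.59. Of the 8 genes 4 lay below -2, beside 6.56% of all entries. All 8 had at least 2.71 RPKM in VCaP, whereas an entry listed at 0 there cannot be lower. Among entries that reached 1 RPKM in at least 1 library, the share below -2 was 12.2%, and among those that reached it in both, 29.1% were higher. After centring, 7 of the 8 were negative and 0 lay below -2. After quantile normalization 8 were negative and 1 lay below -2. MTF1, the zinc sensor itself, had 2.71 RPKM in VCaP against 1.46 in VCaP ERα, a log2 ratio of -0.59, which equals the median of expressed entries. NR3C1, the glucocorticoid receptor, had 6.44 and 0.666 RPKM in the same order (log2 ratio -2.16). KEAP1, the inhibitor of the oxidant-response factor NFE2L2, had 43.0 and 6.37 RPKM (log2 ratio -2.58), and NFE2L2 itself 13.8 and 5.74 RPKM (log2 ratio -1.14). STAT3, which relays cytokine signals, had 30.9 and 6.81 RPKM (log2 ratio -2.03). Of the general promoter factors, USF1 had 18.6 and 3.47 RPKM (log2 ratio -2.13), USF2 27.9 and 8.88 RPKM (log2 ratio -1.55), and SP1 29.9 and 9.88 RPKM (log2 ratio -1.51).

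Zinc leaves the cytosol through transporters of the SLC30A family, called ZnT, and 7 of its 10 genes were higher in VCaP ERα, beside 46.6% of all entries. SLC30A8 and SLC30A10 were among the 7 with no more than 0.152 RPKM in either library. A log2 ratio above 2 was found for 1 of the 10 genes and one below -2 for 0, beside 2.27% and 6.56% of all entries. The highest log2 ratio was that of SLC30A4, a transporter of intracellular vesicles, with 0.238 RPKM in VCaP against 8.08 in VCaP ERα (log2 ratio 2.88). SLC30A9 had 9.07 and 32.3 RPKM (log2 ratio 1.72). SLC30A1, the exporter of the cell surface and a classical target of MTF1 beside the metallothioneins, was lower, with 16.2 and 4.29 RPKM (log2 ratio -1.70). After centring the log2 ratio of SLC30A1 was -1.11. The metallothioneins had both signs. MT1E and MT1X were positive, but MT1E was listed at 0 in VCaP and could not be lower. MT2A had the sign of SLC30A1, at -0.90, or -0.31 after centring, while MT1F was positive at 0.45. A link between these signs and MTF1 was not tested.

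The remaining ZnT genes differed less. The transporters of the secretory pathway SLC30A5, SLC30A6 and SLC30A7 had log2 ratios of 0.54, -0.67 and 0.60. SLC30A2 had 0.177 RPKM in VCaP against 1.10 in VCaP ERα (log2 ratio 0.84), and SLC30A3, known from synaptic vesicles, 1.18 and 0.826 RPKM (log2 ratio -0.26). SLC30A8, known from insulin granules, had 0.0171 and 0.152 RPKM, and SLC30A10 was listed at 0 in VCaP with 0.0990 RPKM in VCaP ERα.

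Zinc enters the cytosol through the ZIP transporters of the SLC39A family. Of its 14 genes 6 were higher and 8 lower in VCaP ERα, with 1 above 2, 3 below -2 and a median of -0.084, beside the same 2.27% and 6.56% of all entries. The list turned with the scaling, to 9 higher and 5 lower and 1 below -2, both after centring and after quantile normalization. SLC39A1, a surface importer known for zinc uptake in prostate cells, had 57.1 RPKM in VCaP against 13.3 in VCaP ERα (log2 ratio -2.02). SLC39A8, which also carries cadmium and manganese, had 9.47 and 1.08 RPKM (log2 ratio -2.33), and SLC39A11 had 16.8 and 1.13 RPKM (log2 ratio -3.06). SLC39A10, an importer of the cell surface, had 3.15 and 24.6 RPKM (log2 ratio 2.62).

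Of 9 genes of copper handling 3 were higher and 6 lower, with 0 above 2 and 1 below -2, beside 2.27% and 6.56% of all entries. The directions turned to 6 higher and 3 lower after centring and after quantile normalization. The gene below -2 was SLC31A2, a copper transporter of intracellular membranes, with 35.5 RPKM in VCaP against 2.73 in VCaP ERα (log2 ratio -3.29). The copper chaperone ATOX1 had 29.9 and 7.65 RPKM (log2 ratio -1.84), and the importer SLC31A1 had 11.6 and 4.46 RPKM (log2 ratio -1.20). The exporter ATP7B had 2.60 and 5.82 RPKM (log2 ratio 0.92). Of 7 genes of iron handling 1 was higher and 6 lower, or 3 and 4 after centring and after quantile normalization, with 0 above 2 and 1 below -2, beside those same shares. The ferritin heavy chain FTH1, which has copies elsewhere that can share its reads, had 812 and 73.4 RPKM (log2 ratio -3.45), and the iron exporter SLC40A1 had 0.115 and 2.97 RPKM (log2 ratio 1.83). The uptake genes TFRC and SLC11A2 had log2 ratios of -1.08 and -1.06.

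Of 11 oxidant-response genes 3 were higher and 8 lower, with 1 above 2 and 3 below -2, beside 2.27% and 6.56% of all entries. After centring 2 lay below -2. NQO1, a quinone reductase, had 241 RPKM in VCaP against 2.23 in VCaP ERα (log2 ratio -6.22). HMOX1, the haem oxygenase that heavy metals induce together with metallothioneins, had 11.2 and 1.39 RPKM (log2 ratio -2.35). Thioredoxin (TXN) had 90.6 and 402 RPKM (log2 ratio 2.14). Of 9 glucocorticoid-response genes 3 were higher and 6 lower, with 2 above 2 and 1 below -2, beside the same shares. After centring 5 were higher and 4 lower, and after quantile normalization 4 and 5. FKBP5, which androgens induce as well, had 0.999 and 94.2 RPKM (log2 ratio 5.57), ZBTB16 went from a listed 0 to 7.20 RPKM (log2 ratio 3.04), TSC22D3 had 76.1 and 2.31 RPKM (log2 ratio -4.54) and KLF9 7.32 and 1.11 RPKM (log2 ratio -1.98). The median log2 ratio was -0.87 for the oxidant-response list and -0.54 for the glucocorticoid-response list, beside -0.59 for expressed entries.

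**Figure D4:**
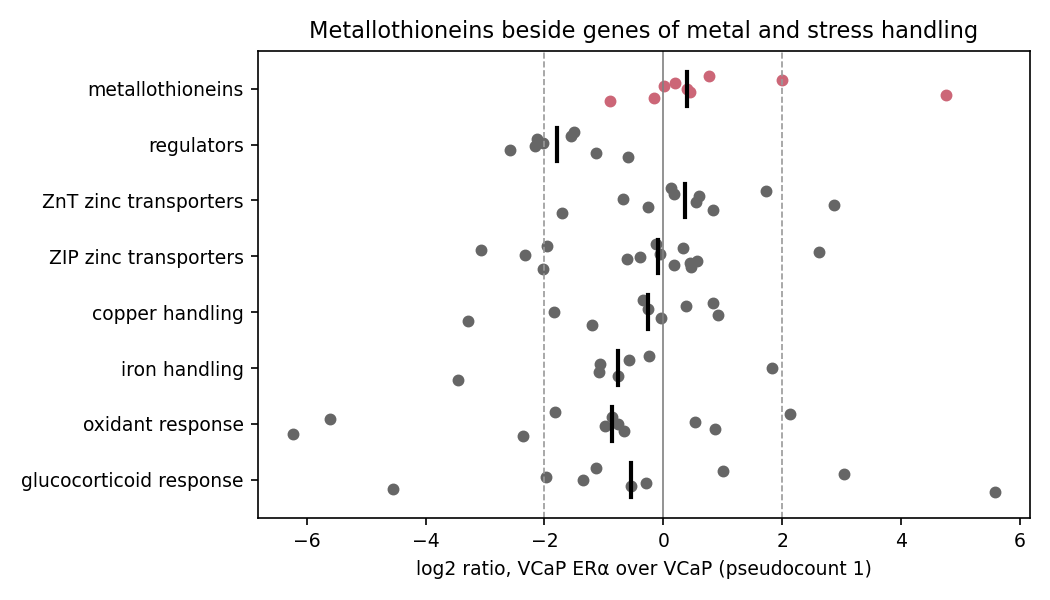
Log2 ratio of VCaP ERα over VCaP (pseudocount 1, horizontal axis) for each gene of the metallothionein family (red) and of 7 lists of related genes (grey), with the median of each list as a black bar and dashed lines at 2 and -2. The metallothioneins have a median of 0.39 and the ZnT transporters of 0.36. The regulators of metallothionein genes all lie below 0, with a median of -1.79, beside -0.59 for expressed entries. The 0.39 is the value of MT1G, which was listed at 0 in VCaP and had 0.315 RPKM in VCaP ERα.

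The entries most like MT2A, the gene of highest mean level, were sought by the distance between log2(RPKM + 1) values over the 2 VCaP libraries. The closest was SND1, with 43.2 RPKM in VCaP against 22.6 in VCaP ERα at a distance of 0.0039. RAB6A, AHSA1, HADHB and CTDSP2 followed at distances of 0.034 to 0.062. None of these 5 belongs to the metallothioneins, and likeness over 2 values shows no more than a similar pair of levels.

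The mouse fibroblasts gave a separate view of the same family in the NEAT1 comparison, where NEAT1 knockout was compared with wild type. Neat1 had 29.5 RPKM in wild type against 2.01 in KO, in the direction of the labels. Mouse cells carry 4 metallothionein genes, on chromosome 8, of which Mt1 and Mt2 are the widely expressed ones. Mt2, the counterpart of MT2A (94172617 to 94173567), had 148 RPKM in wild type against 1086 in KO, a ratio of 7.35 and a log2 ratio of 2.87. Mt1 (94179088 to 94180327) had 309 and 984 RPKM, a ratio of 3.18 and a log2 ratio of 1.67. A log2 ratio above 2 was reached by 1 of the 4 genes, Mt2, beside 0.223% of the 23329 mouse entries, and Mt2 and Mt1 ranked 15 and 88. Mt1 was 2.10 times Mt2 in wild type and 0.906 times in KO, so that here too the proportions within the family differed between the libraries. Mt3 had 0.579 and 1.32 RPKM and Mt4 0.228 and 0.348 RPKM. These libraries were made from poly-A RNA of another species, and no level was compared between them and the VCaP libraries.

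The promoters of the mouse genes, taken from RefSeq (GRCm38.p6) as 250 bases before to 50 after each start, were searched on both strands for TGCACNC and TGCGCNC, the core of the metal response element, with overlapping matches counted separately. Matches numbered 4 for Mt2, 3 for Mt1, and 1 each for Mt3 and Mt4. Of the 32851 promoters of this length, 0.517% held at least 4 matches, 1.97% at least 3 and 25.7% at least 1. Metallothionein promoters are known to carry this element, so the shares are no test of these genes. A match is a description of the letters only. Human promoter sequences were not analysed here.

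**Figure D5:**
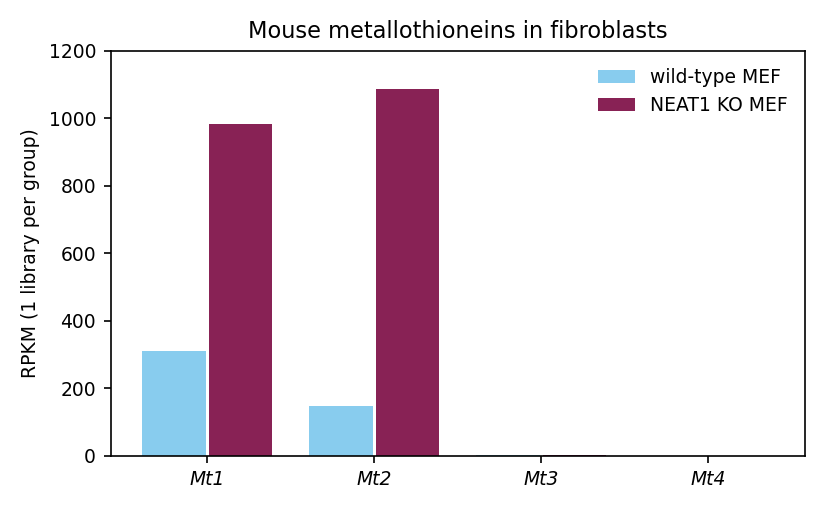
RPKM of the 4 mouse metallothionein genes in wild-type (light blue) and NEAT1 KO (purple) fibroblasts, bars from 0, with 1 library per group and no error bars. Mt1 (309 against 984 RPKM) and Mt2 (148 against 1086 RPKM) are higher in KO, and Mt3 and Mt4 are too low to be seen at this scale.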

How the data were processed

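The authors deposited RPKM values per entry for 4 libraries, with no normalization between libraries stated. The submitters' processing notes name CASAVA 1.8 and the builds mm10 and hg18, and the aligner and counter are not given in the sources used here. Coordinates are printed as in the files, and spans are end minus start. In the mouse files 55.9% of 20638 starts were 1 lower than in RefSeq and 3.37% equal.

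Log2 ratios used a pseudocount of 1, which understates the change of low entries, and a ratio above 2 or below -2 was counted. A symbol on several entries was represented by the one of highest mean RPKM. The genes named were the 9 members, ESR1, all regulators, ZnT genes and other metallothioneins, the up to 4 largest ratios of each other list, the neighbours described above, the 5 entries nearest MT2A and the mouse genes. The values of 1 gene that this rule names are not reported here. Members and lists were chosen with earlier results of these data known. Results were recomputed with 0.1 as pseudocount, without entries under 1 RPKM in both libraries, and with centring, quantile normalization, scaling to the RPKM sum, and summing the entries of a symbol. The total of mapped reads is unknown, so no interval or detection floor was computed. With 1 library per group no test was made. The calculations were tested on simulated data. Calculations ran in Python 3.11.15 with pandas 2.3.3 and numpy 2.4.6, and plots in matplotlib 3.10.9.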

Additional observations from a re-analysis of the deposited data

How the results depend on the processing

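A value was taken as unchanged within a factor of 1.5, since no replicate spread exists. The number of metallothionein genes with a log2 ratio above 2 was 1 as reported, beside 2.27% of all entries. It was 4 with a pseudocount of 0.1 (MT1E, MT1X, MT3 and MT1G), beside 16.3%. MT3 and MT1G were listed at 0 in VCaP and had under 1 RPKM in VCaP ERα. The number was 2 (MT1E and MT1X) after centring, after quantile normalization and after scaling to the RPKM sum, beside 4.77%, 3.84% and 3.22%. The number below -2 was 0 under each of these. The median log2 ratio of the 9 genes, 0.39, became 1.32 with a pseudocount of 0.1 and 0.99 after centring. The log2 ratio of the summed level, 0.39, became 0.98 after centring and 1.08 after quantile normalization. Among the flanking entries 1, HERPUD1, passed 2 after centring and after quantile normalization. Genes of the other lists below -2 numbered 13 as reported, 6 after centring and 7 after quantile normalization, and genes above 2 numbered 5, or 10 with a pseudocount of 0.1. Of all entries 588 lay above 2 as reported, 4238 with a pseudocount of 0.1, 1238 after centring and 996 after quantile normalization, and 1701 lay below -2 as reported, or 2958, 868 and 997 in the same order. Centring takes the median of -0.59 away from every log2 ratio, so counts above 2 rise and counts below -2 fall. A pseudocount of 0.1 understates the change of low entries less than a pseudocount of 1. Why the expressed entries had a median below 0 was not tested. MT1E was above 2 and MT2A below 0 under every alternative, and Mt2 was the only mouse gene of the 4 above 2 under the pseudocount of 0.1 and the centring. No paired analysis was possible because each group holds 1 library. Depth limits the low values, and it is unknown here.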
